A study of Bos taurus with 45 samples.

Results

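In ruminal papillae of 15 heifers moved stepwise from forage to grain, 48 genes had a higher mean expression on 72% grain than on 0% grain and lost part of that difference on 89% grain. They were chosen from measured values. A gene was considered if its reads per 1000000 reads on genes (RPM) exceeded 1 in each of the 15 heifers on any of the diets. For such genes the mean over heifers of log2(RPM + 1) on each high grain diet minus that on 0% grain was taken. A member had a difference of at least log2 of 1.5 on 72% grain, which is called here the 1.5-fold minimum, a difference below that minimum on 89% grain, and 0.25 or more between the 2 differences. The files list 24616 genes, 11516 of them passed the RPM criterion, and 48 of these were members after 4 genes had been left out by name. One of those 4, LOXL2, met the numbers of the rule, with differences of 0.94 on 72% grain and 0.50 on 89% grain.

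The animals were Angus-Hereford crossbred yearling heifers, all on a stepwise change of diet. The labels term it rapid, and the study uses both rapid and gradual for it. Each heifer gave 1 papillae sample per diet, 45 samples in all. Samples were taken on day 3 (0% grain), day 15 (72% grain) and day 26 (89% grain), and the sample labels name the same diets 3%, 75% and 92% grain. The samples on 0% and 72% grain fell on the third day of a feeding period and those on 89% grain on the sixth, after diets of intermediate grain content had been fed. Every heifer received the diets in the same order and no heifer kept on 1 diet was analysed here, so diet, day of the trial and days on the diet cannot be told apart. Both high grain diets were compared with the same 0% samples. Biopsies of whole papillae hold several cell types, and fewer cells of a type and less RNA per cell cannot be told apart in them.

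Ruminal papillae are the finger-like projections of the rumen wall, covered by a stratified squamous epithelium in which cells divide in the basal layer and cornify towards the lumen. This epithelium absorbs and metabolizes the short chain fatty acids that microbes make from feed, and it forms the barrier between rumen fluid and blood. Grain starch is fermented faster than forage fibre, which releases more acid, and the epithelium is known to remodel during the adaptation to such diets.

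In units of 1000000 reads (M), depth ranged from 22.53 to 37.08 M on genes per sample, and its median was 30.8, 28.38 and 31.01 M on 0%, 72% and 89% grain. A pair of libraries lay far from their diet's others on the first principal components, that of heifer 172 on 0% grain and that of heifer 286 on 89% grain. Heifer 352 also stood apart: from 0% to 72% grain, 19.5% of all genes tested were higher by the 1.5-fold minimum or more in that heifer, where the median heifer had 6.89%. The number of members and the correlations between them are also given without these heifers.

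Of 171 genes at or above the 1.5-fold minimum on 72% grain, 80 were also at or above it on 89% grain, and the 48 members had returned part of the way. A further 42 were under it on 89% grain with less than 0.25 between the diets. Another 132 genes reached it on 89% grain only. The mirror image of the rule, genes lowered on 72% grain only, held 5 genes.

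**Figure D1:**
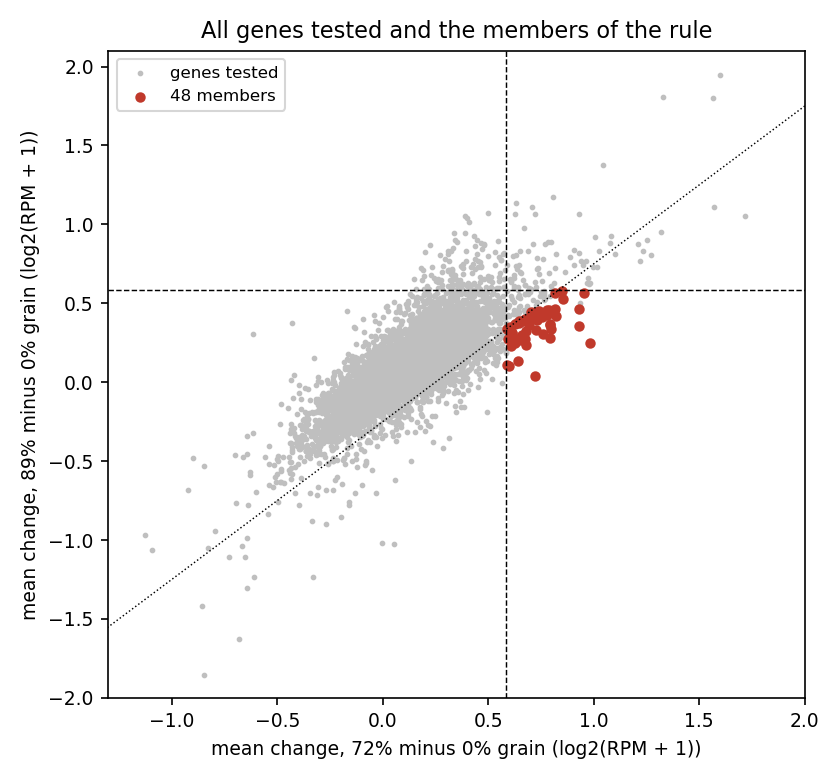
Mean difference from 0% grain on 72% grain (x axis) and on 89% grain (y axis), both in log2(RPM + 1) over 15 heifers, for all 11516 genes tested (grey) and the 48 members (red). Dashed lines mark the 1.5-fold minimum and the dotted line marks 0.25 between the diets; the members sit in the corner that the rule cuts out, at the edge of a continuous cloud.

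The difference on 72% grain ranged from 0.59 to 0.98 over the members, with a median of 0.71 against 0.08 over all genes tested. On 89% grain it ranged from 0.04 to 0.58, with a median of 0.36 against 0.06. On this log2 scale no member returned to or below its mean on 0% grain. In mean RPM this did not hold for every member: ENSBTAG00000013831 had 40.2 on 0% grain and 36.5 on 89% grain. The share of the first difference that was lost on 89% grain ran from 30.7% to 94.8% with a median of 48.7%, and 22 of the 48 members lost at least as much as they kept. The members were chosen by these differences, which therefore carry no test. The rule set no minimum for the difference on 89% grain.

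The thresholds cut through a continuum. The members nearest to the minimum on 72% grain had differences of 0.589 and the nearest genes below it 0.583. On 89% grain the nearest members lay at 0.576 and 0.566 and the nearest genes above the maximum at 0.624 and 0.628. For the step between the diets, 0.25 stood against 0.246 and 0.245.

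The members were mostly genes of low to middle abundance. Their mean RPM over 45 samples had a median of 9.69 (quartiles 4.36 and 25.6), lower than the median of 21.9 over all genes tested, and ranged from 1.57 to 310. The lowest count behind any member value was 10 reads. On 72% grain every member exceeded RPM 1 in all heifers, 38 did so in all 45 samples, and 3 did so in all heifers on 72% grain only. RPM is not divided by transcript length, so these levels are not compared between single genes.

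The 4 members named here had the largest difference on 72% grain or the largest step between the high grain diets. The files give Ensembl identifiers without gene names, so what these genes encode is not stated.

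ENSBTAG00000014835 had an RPM of 83.3 to 352 on 0% grain (median 203), 279 to 637 on 72% grain (median 400) and 150 to 600 on 89% grain (median 286). Its means were 215 ± 77.4, 397 ± 90.1 and 317 ± 121 (SD, n = 15). The value was higher on 72% than on 0% grain in 14 of 15 heifers and lower on 89% than on 72% grain in 13, and the ranges on 0% and 72% grain overlapped. Heifer 182 was the exception at the first step (352 to 279), and heifers 182 and 294 were at the second (279 to 515 and 409 to 600). The mean difference in log2(RPM + 1) was 0.95 on 72% grain, and 0.39 of it was absent on 89% grain. Without heifer 352 these values were 0.85 and 0.30. With all heifers it lost 40.9% of the first difference and kept 0.56 on 89% grain, close to the maximum of the rule. It met the rule in 11 of the 15 settings with 1 heifer left out.

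ENSBTAG00000010661 came closest to a full return. Its RPM ran from 1.33 to 9.03 on 0% grain (median 3.83), from 4.79 to 9.45 on 72% grain (median 7.30) and from 1.30 to 6.99 on 89% grain (median 4.21). The means were 4.21 ± 2.05, 7.12 ± 1.39 and 4.24 ± 1.64 (SD, n = 15), so that the mean on 89% grain was within 0.04 of that on 0% grain on the log2 scale and 94.8% of the difference was lost. It was higher on 72% than on 0% grain in 13 heifers and lower on 89% than on 72% grain in 14. The lowest value on 72% grain was above the median of either other diet.

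For ENSBTAG00000008300, RPM lay between 10.5 and 90.5 on 0% grain (median 49.6), between 61.4 and 165 on 72% grain (median 86.8) and between 22.9 and 128 on 89% grain (median 67.6). It averaged 52.8 ± 24.4, 93.7 ± 31.7 and 66.3 ± 29.9 (SD, n = 15), with 13 heifers higher at the first step and 11 lower at the second. Here the heifers parted on 89% grain: heifer 236 went from 93.8 to 22.9 and heifer 352 from 152 to 29.2, while heifer 294 went from 63.7 to 128. The ranges of all 3 diets overlapped. The step between the high grain diets was 0.58 on the log2 scale, and 0.45 without heifer 352.

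ENSBTAG00000013831 had the largest mean difference of the 48, 0.98, and the least even one. Its RPM spanned 2.92 to 274 on 0% grain (median 12.5), 2.51 to 191 on 72% grain (median 39.2) and 2.60 to 135 on 89% grain (median 17.3). The means were 40.2 ± 68.9, 60.7 ± 59.8 and 36.5 ± 39.6 (SD, n = 15), each SD as large as its mean or nearly so. In heifer 352 the RPM went from 3.25 to 131 and back to 4.28, and in heifer 182 it went from 38.5 to 2.51. Only 11 heifers were higher on 72% than on 0% grain. The fit to all genes described below did not call it higher at this step (limma adjusted p 0.261). Without heifer 352 the difference on 72% grain was 0.70 and the step between the high grain diets 0.46 instead of 0.74. Taken as the median over heifers in place of the mean, these were 0.35 and 0.21, both below the minimums of the rule. The log2 ratio of the mean RPM + 1 on 72% grain to that on 0% grain was 0.58, just below the 1.5-fold minimum.

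**Figure D2:**
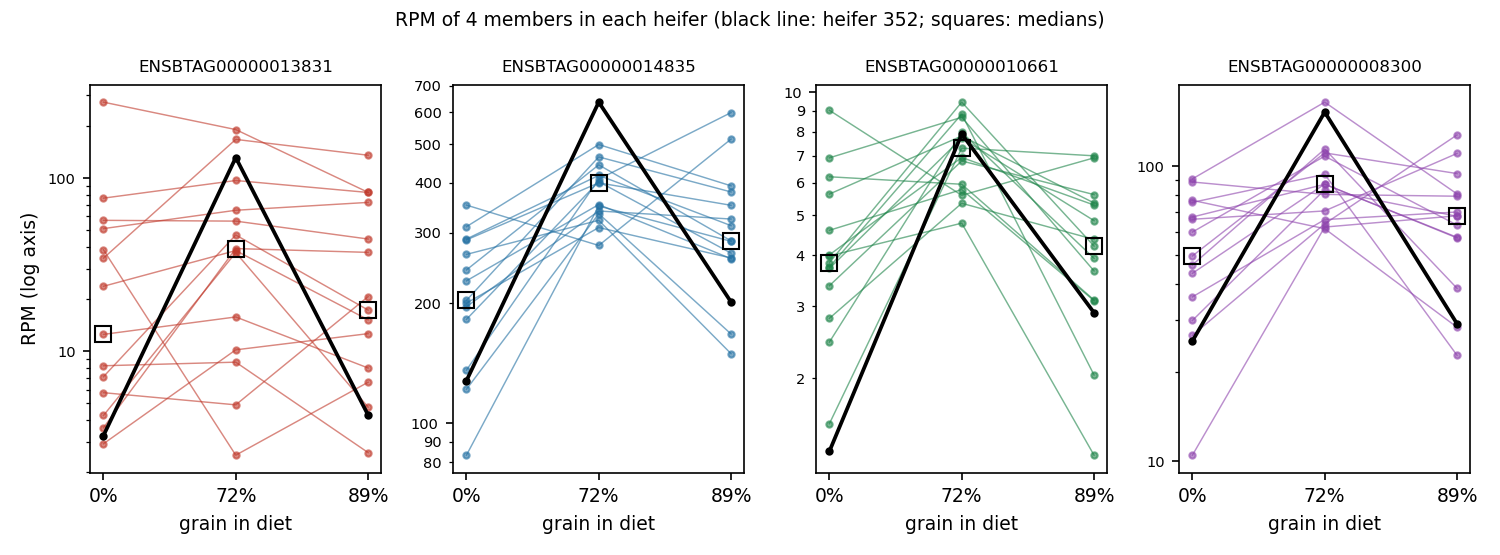
RPM (log axis) of 4 members in each of 15 heifers on 0%, 72% and 89% grain, with lines joining the samples of a heifer, heifer 352 in black and the median of each diet as a square. ENSBTAG00000010661 and ENSBTAG00000014835 peak on 72% grain in most heifers, whereas ENSBTAG00000013831 spans 2.51 to 191 RPM on that diet alone and its heifers cross.

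Over all 48 members, the value was higher on 72% than on 0% grain in 11 to 15 heifers. It was so in all 15 heifers for 10 members and in at least 14 for 31. At the second step the value was lower on 89% than on 72% grain in 9 to 14 heifers, in 13 or more for 9 members and in all 15 for none. No member moved up in at least 14 heifers and down in at least 14. The rule sets a higher minimum for the mean difference at the first step than at the second. The SD of a member's change over heifers was alike at both, with medians of 0.59 and 0.61. The number of heifers that went up and then down was 7 to 13 per member, with a median of 10.5, against a median of 6 over all genes tested. The rule used the means of these changes and so favours this order, and nothing is read from the comparison.

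The model fitted to all genes (limma on log2(RPM + 1), Benjamini-Hochberg adjusted p under 0.05) called 45 of the 48 members higher on 72% than on 0% grain with a fold over 1.5, where 1.41% of all genes were called so. Without the fold criterion the same number of members, 45, was called, beside 18.5% of all genes. Every sample on 72% grain was above every sample on 0% grain for 1 member, a separation seen in 0.0174% of all genes. The rule used these values, so nothing is read from the counts. Calls of all genes at any fold were unevenly split, 2127 higher and 216 lower, and with TMM scaling the split was 826 to 675. The median difference over all genes moved from 0.08 to 0.00 with this scaling. The members' median was then 0.63 in place of 0.71, and 42 were called, 30 of them with a fold over 1.5.

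On 89% grain, 9 members were called higher than on 0% grain at any fold, beside 15.1% of all genes. The rule set a maximum for this difference, so nothing is read from the count. With the heifer as a block in the fit, 14 members were called, beside 16.8%. The count of 9 was sensitive to single heifers: it was 4 without heifer 172 or heifer 294, 5 without heifer 170, 178, 192 or 246, and 15 without heifer 286. Higher calls over all genes moved the same way in these settings. They numbered 1740 with all heifers, 1398 without heifer 172, 1462 without heifer 294 and 2229 without heifer 286. Without heifer 170, 178, 192 or 246 they numbered 1432 to 1618. This did not hold for every heifer. Members called rose to 12 without heifer 362 and to 10 without heifer 360, while higher calls over all genes fell to 1632 and 1600. With TMM scaling 5 members were called, and all genes split into 1102 higher and 906 lower calls in place of 1740 and 336.

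Between 72% and 89% grain, limma called 0 members lower, beside 0% of all genes; 32 members had an unadjusted p under 0.05, as had 1330 genes in all, and the smallest adjusted p over all genes was 0.0757. The quasi-likelihood test of edgeR on the recovered reads also called 0 members, beside 0.00868% of all genes, with 28 members at an unadjusted p under 0.05, as had 1370 genes in all. With the heifer as a block, 2 members were called lower by limma, beside 0.365% of all genes, and 2 by edgeR, beside 0.443%. The median step between the diet means was 0.35. This contrast too was part of the rule.

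The median change over the 48 members from 0% to 72% grain was above 0 in all 15 heifers, from 0.19 in heifer 182 to 1.83 in heifer 352, with a median of 0.61 (SD 0.42, n = 15). In the other 14 heifers it did not exceed 1.03. The median over all genes tested was between -0.02 and 0.26 in the same heifers. The rule used the means over heifers at this step and the next, so the comparison with all genes is a description. All 48 members were higher in heifers 178 and 352, and 30 were in heifer 182.

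From 72% to 89% grain the members' median change was below 0 in 13 heifers and above 0 in heifers 182 (0.21) and 294 (0.41), with the same SD as at the first step, 0.42. It was lowest in heifer 352, at -1.38, followed by heifer 236 at -0.73, heifer 286 at -0.69 and heifer 314 at -0.67. In heifer 286, 15.2% of all genes tested were lower by the 1.5-fold minimum or more at this step, where the median heifer had 2.63%, and the median over all genes was -0.22. Heifers 170 and 172 barely moved, at -0.08 and -0.18.

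The net difference on 89% grain ranged widely. In 4 heifers the members' median was below that on 0% grain, by -0.47 in heifer 236, -0.29 in heifer 286, -0.19 in heifer 314 and -0.08 in heifer 362. In the other 11 it was above, by 0.15 to 1.07, with heifer 294 the highest. In heifers 236, 286 and 314, 14 or 15 of the 48 members were higher on 89% than on 0% grain. In heifer 246 it was 47.

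**Figure D3:**
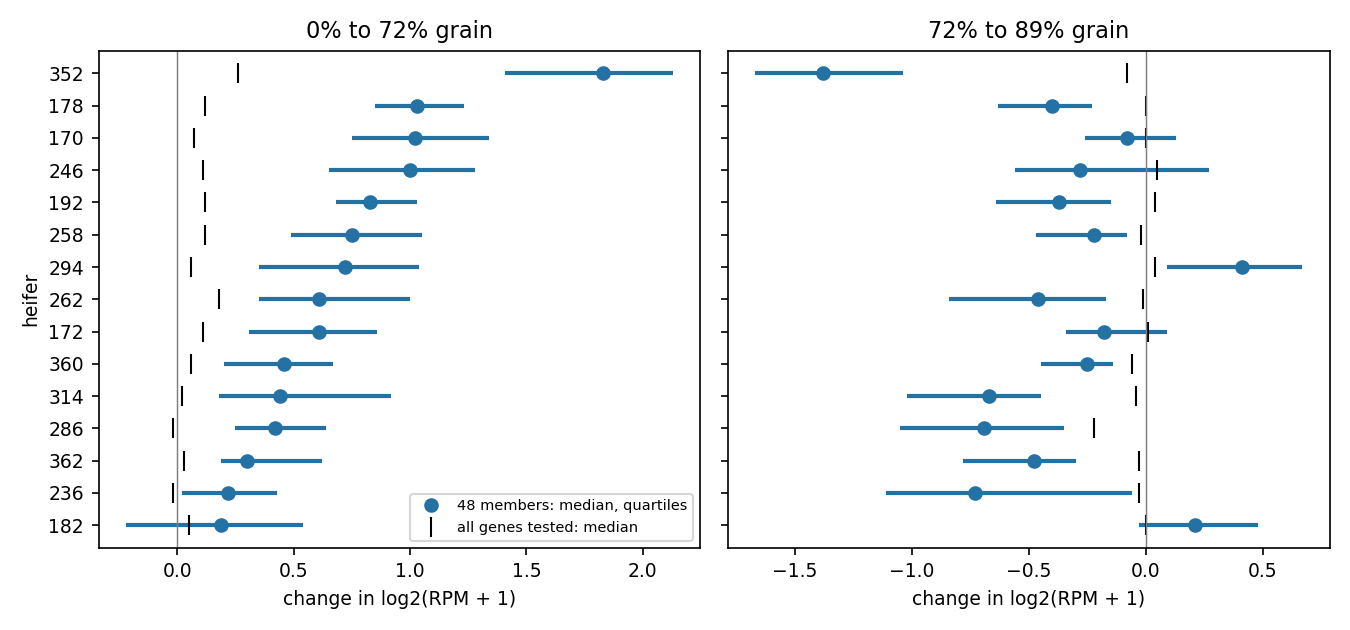
Change in log2(RPM + 1) of the 48 members in each heifer from 0% to 72% grain (left) and from 72% to 89% grain (right), as the median (point) and quartiles (line), with the median over all genes tested as a black tick. All 15 points lie above 0 on the left, from 0.19 to 1.83, and 13 lie below 0 on the right.

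The mean log2 level of the members drew together on 72% grain and spread again on 89% grain. On 0% grain it ranged from 2.67 to 3.69 over the heifers (SD 0.31), on 72% grain from 3.72 to 4.47 (SD 0.19) and on 89% grain from 3.08 to 4.13 (SD 0.32). Heifer 352 was the lowest on 0% and 89% grain and the highest on 72% grain, and without it the SD were 0.28, 0.14 and 0.30. The lowest heifer on 72% grain (3.72) was above the highest on 0% grain (3.69), which the choice of the members favours. The members were chosen on these samples, so the narrowing too is a description.

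The same held gene by gene. The SD over heifers had medians of 0.52, 0.38 and 0.47 over the members on 0%, 72% and 89% grain, against 0.22, 0.20 and 0.21 over all genes tested. It was smaller on 72% than on 0% grain for 37 of the 48 members, as for 63.3% of all genes. It was smaller on 72% than on 89% grain for 36, as for 55.7%, and smallest on 72% grain for 31, as for 41.6%. These are counts of genes in the same 45 samples and the difference was not tested. The members were chosen on these same values, so nothing is read from the difference.

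Heifers that started low had the larger first change. The 4 lowest member levels on 0% grain, 2.67, 2.72, 2.87 and 3.01 in heifers 352, 170, 246 and 294, went with median changes of 1.83, 1.02, 1.00 and 0.72. The 4 highest, 3.69, 3.55, 3.51 and 3.42 in heifers 182, 236, 360 and 286, went with 0.19, 0.22, 0.46 and 0.42. Level and change share the 0% sample of the heifer, so they are not independent measures. Heifer 294, the lowest on 72% grain, was the highest on 89% grain.

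**Figure D4:**
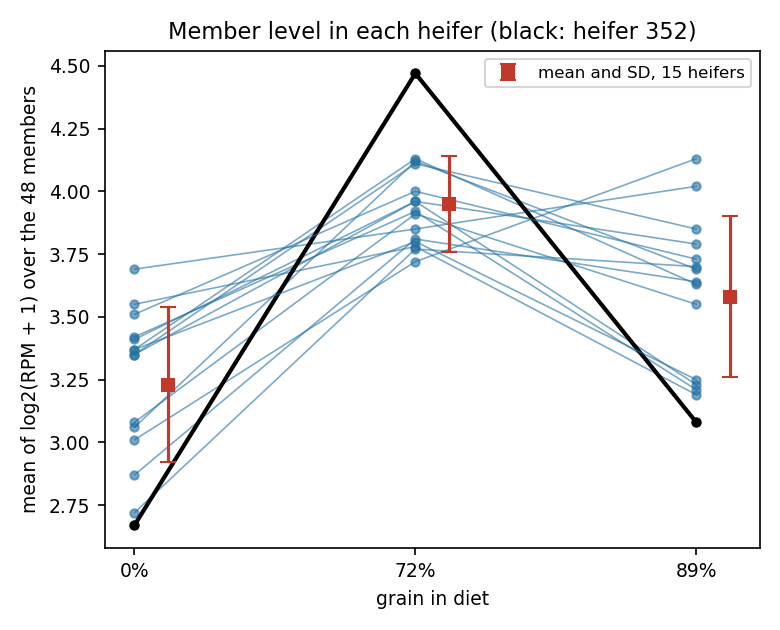
Mean log2(RPM + 1) over the 48 members in each heifer on the 3 diets, with lines joining the samples of a heifer, heifer 352 in black, and the mean with its SD over 15 heifers in red. The heifers lie within 3.72 to 4.47 on 72% grain and spread over 2.67 to 3.69 on 0% grain and 3.08 to 4.13 on 89% grain.

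Within a diet, the members varied together more than genes did on the whole. Deviations from the diet mean over the 45 samples had a median Pearson r of 0.35 over the 1128 pairs of members, with quartiles of 0.16 and 0.53, and 28.19% of pairs were above 0.5. Over all pairs of genes tested the median was 0.08 and 3.12% were above 0.5. Samples of a heifer share the animal, and members were chosen on the same samples, so these correlations are a description.

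Clustered by these correlations and cut into 3 groups, a number chosen after the values were seen, the members formed a group of 39, a group of 6 and a group of 3. In the group of 39, which held ENSBTAG00000014835, ENSBTAG00000010661 and ENSBTAG00000008300, the median r was 0.46. In the group of 6, with ENSBTAG00000013831, it was 0.30, and in the group of 3 it was 0.59. Between the groups of 39 and 3 it was -0.04, and between those of 6 and 3 it was -0.16. With the groups kept and heifer 172, 286 or 352 left out, the median over all members was 0.30 to 0.36 and that in the group of 39 was 0.42 to 0.47. In the group of 6 it was 0.23 to 0.28, and 0.17 without all 3 heifers. Between the groups of 6 and 3 it was 0.11 without heifer 172, so its sign there rested on that heifer.

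The median change of the group of 6 from 0% to 72% grain was 2.25 in heifer 352 and 2.19 in heifer 262, where the group of 39 had 1.81 and 0.46. The group of 3 changed most in heifer 172, by 1.86, and in heifer 362, by 1.43, where the group of 39 had 0.61 and 0.30. On 89% grain the group of 3 was higher still in heifer 172, 2.36 above 0% grain. The 0% library of heifer 172 is 1 of the libraries that stood apart, and without this heifer the median difference of the group of 3 on 72% grain was 0.55 instead of 0.65.

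**Figure D5:**
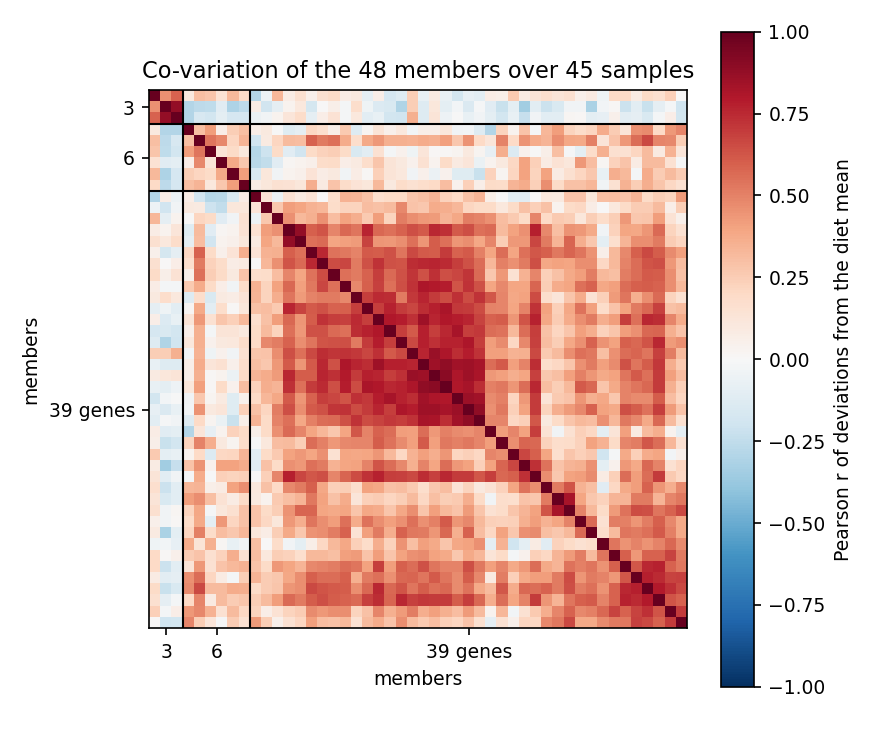
Pearson r between the members' deviations from the diet mean over 45 samples, with members ordered by average linkage and black lines between the 3 groups. The group of 39 forms 1 red block with a median r of 0.46, and the group of 3 is pale or blue against it, with a median r of -0.04.

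Membership rested heavily on heifer 352. Without it, 27 genes met the rule, and 26 of them were among the 48; of the original members, 35 still reached the minimum on 72% grain and 32 the minimum step between the diets. Their median difference on 72% grain was 0.65 and their median step 0.30, against 0.71 and 0.35 with all heifers. The rule had used the other 14 heifers too, so nothing is read from the direction. Without heifer 172 there were 51 genes, 42 of them among the 48, and without heifer 286 there were 55, 38 of them shared. Without all of heifers 172, 286 and 352, 28 genes met the rule and 25 were shared. Leaving out each heifer in turn, 21 of the 48 members met the rule in all 15 settings.

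Membership in the neighbouring sets rested less on that heifer. Of the 80 genes raised on both high grain diets, 67 (83.8%) stayed in that set without heifer 352, and of the 132 raised on 89% grain only, 114 (86.4%) did, beside 26 of 48 (54.2%) here. The sets have different numbers of bounds to meet, and the difference was not tested. In heifer 352 the median change from 0% to 72% grain was 1.83 for the members, 1.56 for the set raised on both diets and 0.42 for the set raised on 89% grain only. From 0% to 89% grain it was 0.43, 0.89 and 0.99. The median r between genes was 0.35 for the members, 0.11 for the set raised on both diets and 0.46 for the set raised on 89% grain only.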

How the data were processed

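RNA of ruminal papillae from 15 heifers on 3 diets was sequenced as paired-end mRNA libraries, with samples of all diets in each lane. The authors processed reads with CASAVA 1.8, aligned them to the bovine UMD 3.1 genome with TopHat2 2.0.10, counted them per Ensembl gene with HTSeq and deposited RPM, which sum to 1000000 in each sample. Whole reads could be recovered: 100.0% of values came out whole, with a tolerance of 0.05 reads. No pair of samples was alike within sampling noise (990 pairs, chi-square over degrees of freedom at least 20.6).

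The 11516 genes that exceeded RPM 1 in each of the 15 heifers on any diet entered the test, in which limma 3.58.1 (R 4.3.3) compared log2(RPM + 1) between 2 diets, using a trended variance and no heifer term. Calls had a Benjamini-Hochberg adjusted p under 0.05 and, where stated, a fold over 1.5. On data simulated for 72% against 0% grain (11516 genes, 200 of them changed by a fold of 2), limma called 95.5% of the changed genes and 7 others, and 91.5% and 3 others with the heifer as a block. The simulated counts had no heifer effect and no correlation between genes. They therefore do not rank the fits with and without the block for the measured data. A log2 difference with a pseudocount of 1 understates the change of low genes. Same-numbered samples came from the same heifer, and their deviations from the diet means had a median correlation of 0.356 (39 of 45 pairs over 0.1), against -0.022 between heifers.

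Alternatives were the heifer as a block, edgeR 4.0.16 on recovered reads, TMM and median-of-ratios scaling, pseudocounts of 0.1 and 0.5, other filters and averages, and each heifer left out. Leaving out several heifers together, the correlations without single heifers and the grouping by correlation were chosen after seeing the data. Python 3.11.15, numpy 2.4.6, pandas 2.3.3, scipy 1.17.1 and matplotlib 3.10.9 served the rest.

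The members, lists and tests were chosen with earlier results of these data known. The reference table used here matched 0 of the 24616 identifiers to a symbol, so gene lists, cell type markers and sequences were not analysed here, and the tissue label was not checked against markers. Genes to be named were the members with the largest differences, steps or mean RPM and those at the thresholds. Of these, only 4 are given by identifier, since names are not paired with them. Samples were grouped by their labels alone, so the study's ruminal pH groups, which the labels do not give, were not used here.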

Additional observations from a re-analysis of the deposited data

How the results depend on the processing

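The number of genes that met the rule was counted anew in each setting and moved with it. A pseudocount of 0.1 gave 90 members (44 of the 48 among them), and leaving out 1 heifer gave 27 (without heifer 352) to 70 (without heifer 294). Leaving out heifers 172, 286 and 352 together gave 28. With TMM or median-of-ratios scaling 32 genes met the rule, and 29 of them were among the 48. The other settings gave 39 to 68, and with the median over heifers 64 genes met the rule, of which 22 were among the 48. The median change heifer by heifer was taken over the same 48 members in every setting. It stayed between 0.50 and 0.67 for the first step and between -0.41 and -0.33 for the second. The members were chosen by these changes, so nothing is read from this stability. Genes called on 72% against 0% grain numbered 177, and 307 with a pseudocount of 0.1 (150 to 208 without 1 heifer). For 89% against 0% grain these numbers were 238, 358 and 189 to 264. For 89% against 72% grain 0 genes passed with a fold over 1.5 by limma and 0 by edgeR, where TMM and median-of-ratios scaling each gave 2. With the heifer as a replicate block, limma called 14 and edgeR 30. Leaving out 1 heifer gave 0 to 8, with 8 without heifer 236, 2 without heifer 170 and 1 without heifer 182. Members called higher on 72% than on 0% grain with a fold over 1.5 numbered 32 (without heifer 352) to 45 with 1 heifer left out. At any fold, 42 were called without heifer 352. Over all genes, 132 were called higher with a fold over 1.5 without heifer 352, against 162 with all heifers. The rule used this contrast, so nothing is read from the counts of members. With the block in limma, lower calls at any fold on 72% against 0% grain went from 216 to 356, and genes at an unadjusted p under 0.05 on 89% against 72% grain went from 1330 to 2038. With that block, genes called with a fold over 1.5 against 0% grain numbered 185 on 72% grain and 250 on 89% grain, in place of 177 and 238. The cause of these shifts was not tested. Counting error weighs on the lowest values: the lowest count behind a member's value was 10 reads, and 10 of the 48 members fell to RPM 1 or below in some sample.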
